A study of Mus musculus with 8 samples.

Results

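The genes described here are 10 genes of sphingolipid metabolism and sphingosine 1-phosphate signalling: the kinases Sphk1 and Sphk2, the lyase Sgpl1, the receptors S1pr1, S1pr2 and S1pr4, the ceramide synthases Cers2, Cers5 and Cers6, and the galactosyltransferase Ugt8a. They were found by gene symbol in a table of 47729 genes and were picked because Sphk1 and Ugt8a were lower in knockdown cells of these same libraries. Their differences between the groups are therefore given as a description, with no p-value. All 10 passed the filter on low counts that left 13462 genes for testing.

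The 8 RNA-seq libraries, 1 per mouse, came from a C57BL/6 mouse model of chronic myeloid leukaemia, 4 in which the leukaemic cells carried an shRNA against Fubp1 and 4 in which they carried a scrambled shRNA. Fubp1 encodes a nucleic acid binding protein named for an element upstream of Myc. In both groups, marrow of donors given 5-fluorouracil had been transduced with a BCR-ABL1 retrovirus that also encodes RFP and with a pLKO.1-Venus lentivirus that carries the shRNA, and had been transplanted into recipients irradiated with 900 cGy. Sorted cells were negative for lineage markers and DAPI and positive for RFP and Venus, so both groups share the oncogene, the drug-treated donors and the irradiated hosts, and differ by label in the shRNA alone. The sources used here name neither the shRNA sequence nor the recipients' age or time of harvest.

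Sphingolipids are built on ceramide, which ceramide synthases make by joining a fatty acyl chain to a long-chain base. Removal of that chain by ceramidases gives sphingosine, and sphingosine kinases phosphorylate it to sphingosine 1-phosphate, a lipid that cells export and sense through G protein-coupled receptors. Sphingosine 1-phosphate lyase breaks this lipid down irreversibly, and in blood and marrow its gradient guides the movement of haematopoietic cells.

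Total counts ran from 24042761 to 44761356 in Fubp1 shRNA libraries and from 22465303 to 38495006 in scrambled shRNA libraries. Expression is given as CPM, the count scaled to library size with TMM factors, as mean ± SD over 4 libraries per group. Fubp1 itself averaged 242 ± 26.98 CPM in knockdown cells and 317 ± 53.0 CPM in scrambled cells, with every knockdown library below every scrambled one (exact two-sided permutation p = 0.0286, the smallest that 70 labelled splits allow), and it missed the threshold of the test over all genes (edgeR quasi-likelihood test, adjusted p = 0.0604). Knockdown library 3 stood apart from the other knockdown libraries: on the first principal component, which held 61.1% of the variance, it lay at 29.0, among the scrambled libraries at 13.7 to 57.3, with knockdown libraries 1, 2 and 4 at -81.2 to -34.1. On the second principal component, with 13.7% of the variance, it lay at 42.5, with scrambled libraries at -30.4 to 0.11 and the other knockdown libraries at -8.00 to 20.1. Its Fubp1 level of 220 CPM was the lowest of the 8 libraries. Knockdown library 3 also had the least early granulocyte RNA of the knockdown group. The 6 early granulocyte markers (Elane, Mpo, Prtn3, Ctsg, Ms4a3, Cebpe) summed to 1964, 943, 86.0 and 3591 CPM in knockdown libraries 1 to 4, against 35.5, 164, 330.4 and 83.5 CPM in scrambled libraries 1 to 4, and 0 of the 6 passed the edgeR test, where 6 had an unadjusted p under 0.05 and DESeq2 called 6 and limma-voom 0. In bulk RNA, more cells of a type and more RNA per cell cannot be told apart. The sorted cells were rich in erythroid RNA in both groups, with 14 erythroid markers summing to 7371 to 11688 CPM in knockdown and 9303 to 10383 CPM in scrambled libraries. Single erythroid markers moved both ways along with the members. By edgeR, Gata1, Klf1, Epor, Car2 and Ermap fell (knockdown at 61.1 to 78.7% of scrambled), Alas2, Hbb-bs and Hbb-bt rose (2.24- to 3.09-fold), and 6 of the 14 were not called. The part of these markers in the members' values was not tested.

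Upstream sequences are shown for Sphk1, Ugt8a, Cers5 and Cers6, the members whose levels differed by more than 1 log2 unit. The stretches are RefSeq sequences of GRCm38.p6, read 5′ to 3′ on the gene's strand and limited to bases before a RefSeq start that lie in no annotated exon. Capitals mark matches to the letters CACGTG (an E-box, the kind of element bound by Myc and Max), AGATAA or its reverse complement TTATCT (bound by GATA factors) and CCAAT.
Sphk1, chr11:116532194-116532443, plus strand: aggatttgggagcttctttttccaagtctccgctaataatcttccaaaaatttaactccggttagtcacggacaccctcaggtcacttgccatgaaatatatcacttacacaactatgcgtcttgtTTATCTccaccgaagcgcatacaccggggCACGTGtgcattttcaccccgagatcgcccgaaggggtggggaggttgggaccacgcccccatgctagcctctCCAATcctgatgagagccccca
Ugt8a, chr3:125938653-125938902, minus strand: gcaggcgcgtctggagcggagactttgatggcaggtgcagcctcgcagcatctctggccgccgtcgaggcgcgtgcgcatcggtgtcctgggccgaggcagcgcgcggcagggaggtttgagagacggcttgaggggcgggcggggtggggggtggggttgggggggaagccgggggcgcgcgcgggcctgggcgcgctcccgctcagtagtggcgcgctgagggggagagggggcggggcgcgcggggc
Cers5, chr15:99772602-99772674, minus strand: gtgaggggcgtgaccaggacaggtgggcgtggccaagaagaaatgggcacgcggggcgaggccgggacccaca
Cers6, chr2:68861191-68861440, plus strand: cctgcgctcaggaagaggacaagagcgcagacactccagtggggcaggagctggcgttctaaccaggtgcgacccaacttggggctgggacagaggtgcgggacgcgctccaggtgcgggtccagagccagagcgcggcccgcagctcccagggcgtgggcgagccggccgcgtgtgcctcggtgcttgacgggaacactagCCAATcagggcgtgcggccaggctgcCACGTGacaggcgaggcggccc
The Sphk1 stretch, which lies inside the gene's annotated span before one of its later starts, held 1 match to each of the 3 motifs, with the GATA letters 124, the E-box 95 and CCAAT 22 bases before the start. Sphk1 windows at earlier starts, from 116530850, 116531587 and 116531661, held none of these 3 motifs. Its window from 116532201 largely overlaps the printed one and held the same 3. Cers6 held the E-box 22 and CCAAT 48 bases before its start. The stretches of Ugt8a and Cers5 held no match to any of the letters searched, and the Ugt8a stretch was richer in G and C (76.8%) than that of Sphk1 (51.6%). The Cers5 stretch also lies inside its gene's annotated span. It is the 73 bases outside exons of a window at 99772516-99772765 and does not reach the start. In 32851 RefSeq windows of 250 bases, searched on both strands, CACGTG was present in 6.02%, AGATAA in 9.99% and CCAAT in 33.8%. A search for TTCNNNGAA, present in 7.02% of windows, and ACGTG, present in 16.6% and contained in CACGTG, was also made. Over the 15 windows of the 9 members with one, some of which overlap, CACGTG matched in 3 members (Sphk1, Cers2 and Cers6), AGATAA in 1, TTCNNNGAA in 2, CCAAT in 4 and ACGTG in 5. Counted by window, as the shares above are, CACGTG matched in 4 of the 15, AGATAA in 2, TTCNNNGAA in 3, CCAAT in 5 and ACGTG in 6. A member with several windows has more chances of a match, so counts by member are not comparable with those shares.

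Of the 10 members, 2 rose (Cers5 and Cers6), 4 fell (Sphk1, Sphk2, Sgpl1 and Ugt8a) and 4 did not pass an adjusted threshold of 0.05 over all tested genes. Over all 13462 tested genes, 8.02% were called higher and 7.29% lower. Because the genes were picked from this contrast, nothing is read from their share. The median log2 fold change was -0.20 over the members and 0.0012 over all tested genes. Knockdown and scrambled libraries did not overlap for 5 members, with Cers5 higher and Sphk1, Sphk2, Cers2 and Ugt8a lower, where 9.54% of all tested genes had every knockdown library higher and 11.1% every one lower. Without knockdown library 3 the log2 fold changes were -1.71 for Sphk1, -0.53 for Sphk2, -0.48 for Sgpl1, -2.08 for Ugt8a, 1.66 for Cers5 and 2.93 for Cers6, and those 6 genes passed the threshold in that fit too. Those of the others were 0.61 for S1pr1, 1.02 for S1pr2, -0.15 for S1pr4 and -0.17 for Cers2. The fit without knockdown library 3 called the most of all tested genes among the 8 leave-one-out fits, 1956 higher and 1469 lower. With another library left out, Cers6 lost its call in 7 fits, Sgpl1 in 6 and Ugt8a in 4. Sphk1, Sphk2 and Cers5 kept theirs in all 8. Per the authors' deposited table, 7 of the 10 had an adjusted p under 0.05, 3 higher and 4 lower, and 4 of them were also past 1 log2 unit. The share of all genes called in that table is not given here. The edgeR shares above do not apply to that count, and nothing is read from it. Some deposited log2 fold changes were smaller in size than those by edgeR, as for Cers6 (1.22, against 2.61) and Ugt8a (-1.45, against -1.90). That of Sphk2 was alike (-0.52 in both). The bound of 1 log2 unit in the deposited table is therefore not comparable with the edgeR values. DESeq2 as run here called 2035 genes higher and 1553 lower over all genes, against 1080 and 982 by edgeR.

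**Figure D1:**
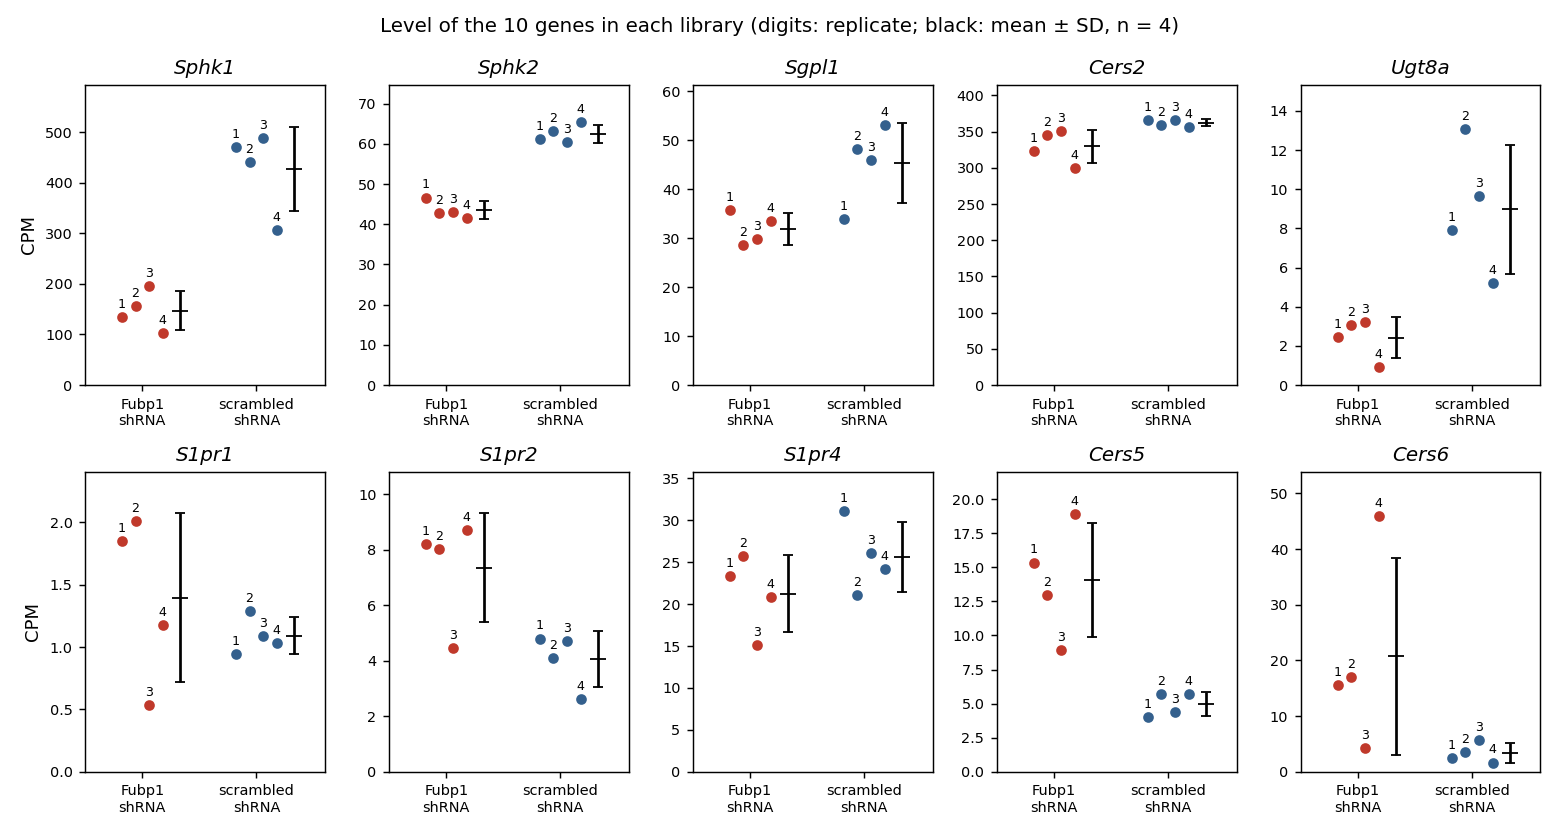
CPM of the 10 genes (vertical axes) in each library, Fubp1 shRNA left of scrambled shRNA in every panel; points are libraries, numbered by replicate, and black bars are mean ± SD (n = 4). Sphk1 lies between 102 and 196 CPM in knockdown and between 306 and 489 CPM in scrambled libraries, while Cers6 spreads from 4.22 to 45.9 CPM within the knockdown group.

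The 2 kinases both fell, and Sphk1 fell further. Sphk1 (chr11:116530925-116536674, GRCm38), the cytosolic kinase induced by growth factors, had 134, 156, 196 and 102 CPM in knockdown libraries 1 to 4, against 471, 441, 489 and 306 CPM in scrambled libraries 1 to 4. All 4 knockdown libraries were below the lowest scrambled library. The means of 147 ± 39.2 and 426 ± 82.8 CPM put knockdown cells at 34.5% of scrambled cells (log2 fold change -1.54 ± 0.22 SE). These values rest on 3330 to 6168 counts per knockdown library and 6803 to 18822 counts per scrambled library. Leaving out each library in turn gave -1.71 to -1.40. Sphk1 overlaps exons of Gm29292 by 192 bases on the opposite strand. Gm29292 averaged 0.185 CPM in knockdown and 0.214 CPM in scrambled cells.

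Sphk2 (chr7:45709467-45718002), the second kinase, which is also found in the nucleus and mitochondria, had 46.7, 42.7, 43.1 and 41.5 CPM in knockdown libraries, against 61.1, 63.2, 60.4 and 65.5 CPM in scrambled libraries. It was the steadiest of the called members within groups, with a coefficient of variation of 5.12% in knockdown and 3.65% in scrambled libraries. Its mean of 43.5 ± 2.23 CPM in knockdown cells was 69.6% of the 62.5 ± 2.28 CPM in scrambled cells (log2 fold change -0.52 ± 0.06 SE). Sphk2 overlaps exons of Rpl18 by 373 bases and of Dbp by 539 bases on the opposite strand. No source used here states the strand setting of the counting, so reads of these genes cannot be told apart. Rpl18, a ribosomal protein gene, had 183 ± 17.7 CPM in knockdown and 201 ± 12.3 CPM in scrambled cells and was not called (edgeR adjusted p = 0.274). Dbp had 2.92 ± 0.395 CPM in knockdown and 2.34 ± 0.686 CPM in scrambled cells and was not called (edgeR adjusted p = 0.417). Per kilobase of exon, Sphk1 exceeded Sphk2 by 2.15- to 3.96-fold in knockdown libraries and by 4.07- to 7.05-fold in scrambled libraries, and the 2 ranges did not overlap.

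Sgpl1 (chr10:61098642-61147703), the lyase that degrades sphingosine 1-phosphate, had 35.7, 28.7, 29.9 and 33.5 CPM in knockdown libraries and 34.0, 48.3, 45.9 and 53.2 CPM in scrambled libraries. The groups overlapped, since scrambled library 1 lay within the knockdown range. The means were 31.9 ± 3.24 CPM in knockdown and 45.4 ± 8.14 CPM in scrambled cells, a log2 fold change of -0.51 ± 0.14 (SE). Its call was lost in 9 of 15 alternatives, 6 of them with 1 library left out (log2 fold change -0.63 to -0.44). The ratio of Sphk1 to Sgpl1 per kilobase averaged 6.05 ± 2.04 in knockdown and 12.7 ± 4.32 in scrambled cells, with overlapping groups.

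The receptors did not pass the threshold. S1pr1 (chr3:115710433-115715072), the receptor through which lymphocytes leave lymphoid organs, had few reads, with 17 to 61 counts per knockdown library and 23 to 42 counts per scrambled library. It had 1.85, 2.01, 0.539 and 1.18 CPM in knockdown libraries and 0.944, 1.29, 1.09 and 1.03 CPM in scrambled libraries, a log2 fold change of 0.35 ± 0.38 (SE). The groups overlapped on both sides of the scrambled range.

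S1pr2 (chr9:20962361-20976781), a receptor that restrains cell migration, had 8.22, 8.03, 4.44 and 8.73 CPM in knockdown libraries, against 4.80, 4.09, 4.73 and 2.61 CPM in scrambled libraries. Knockdown library 3 alone fell inside the scrambled range. The means were 7.35 ± 1.96 CPM in knockdown and 4.06 ± 1.02 CPM in scrambled cells (log2 fold change 0.85 ± 0.27 SE), and S1pr2 passed the threshold without knockdown library 3 and in DESeq2. S1pr4 (chr10:81497747-81500132), a receptor of haematopoietic cells, had 23.4, 25.7, 15.1 and 20.9 CPM in knockdown libraries and 31.2, 21.1, 26.1 and 24.1 CPM in scrambled libraries, with overlapping groups (log2 fold change -0.27 ± 0.18 SE). Per kilobase, S1pr4 made up 81.5 ± 7.12% of the summed level of the 5 receptor genes in knockdown and 91.7 ± 2.09% in scrambled cells. The groups did not overlap but nearly met, at 89.2% in knockdown library 3 and 89.3% in scrambled library 2. S1pr2 took 8.31 ± 0.58% in knockdown and 4.36 ± 0.96% in scrambled cells, also without overlap. S1pr3 took 6.12 ± 6.61% in knockdown, with 15.5% in knockdown library 4, and 0.752 ± 0.643% in scrambled cells, with overlapping groups. The sum itself was 11.1 ± 2.67 CPM per kilobase in knockdown and 11.7 ± 1.78 CPM per kilobase in scrambled cells.

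Among the ceramide synthases, the abundant Cers2 differed little and the scarce Cers5 and Cers6 rose. Cers2 (chr3:95314791-95323599), which makes ceramides with very long acyl chains, had 324, 345, 350 and 300.2 CPM in knockdown libraries and 367, 359, 365 and 357 CPM in scrambled libraries. Every knockdown library was below every scrambled one, but the difference was small (knockdown at 91.1% of scrambled, log2 fold change -0.13 ± 0.06 SE) and was not called. Scrambled libraries varied by 1.32% and knockdown libraries by 6.92% (coefficient of variation). Cers2 overlaps exons of Setdb1 by 75 bases and of 6330562C20Rik by 144 bases on the opposite strand, and reads of these genes cannot be told apart either. Setdb1 had 264 ± 18.9 CPM in knockdown and 242 ± 9.88 CPM in scrambled cells, 6330562C20Rik 4.93 ± 0.897 and 5.17 ± 0.420 CPM. Neither was called by edgeR.

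Cers5 (chr15:99734881-99772885), which prefers the palmitoyl chain, had 15.4, 12.9, 8.95 and 18.9 CPM in knockdown libraries, against 4.02, 5.72, 4.36 and 5.71 CPM in scrambled libraries. All 4 knockdown libraries were above the highest scrambled one. The means of 14.04 ± 4.19 CPM in knockdown and 4.96 ± 0.89 CPM in scrambled cells differed 2.83-fold (log2 fold change 1.505 ± 0.24 SE). Cers6 (chr2:68861441-69114282), of like acyl preference, had 15.7, 17.1, 4.22 and 45.9 CPM in knockdown libraries and 2.50, 3.57, 5.74 and 1.66 CPM in scrambled libraries. Knockdown library 4 was far above the rest and knockdown library 3 lay within the scrambled range. The means were 20.7 ± 17.8 CPM in knockdown and 3.37 ± 1.76 CPM in scrambled cells (log2 fold change 2.61 ± 0.70 SE), and the call was lost in 11 of 15 alternatives, including all 7 fits without a library other than knockdown library 3.

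Per kilobase, Cers2 held 92.8 ± 3.49% of the summed level of the 6 ceramide synthase genes in knockdown and 97.98 ± 0.26% in scrambled cells, so the other 5 genes together took 6.95, 6.28, 3.51 and 11.9% in knockdown libraries, against 1.67, 2.27, 2.12 and 2.00% in scrambled libraries. These shares did not overlap between the groups. The summed level was 96.5 ± 3.47 CPM per kilobase in knockdown and 100.5 ± 1.21 CPM per kilobase in scrambled cells, and overlapped.

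**Figure D2:**
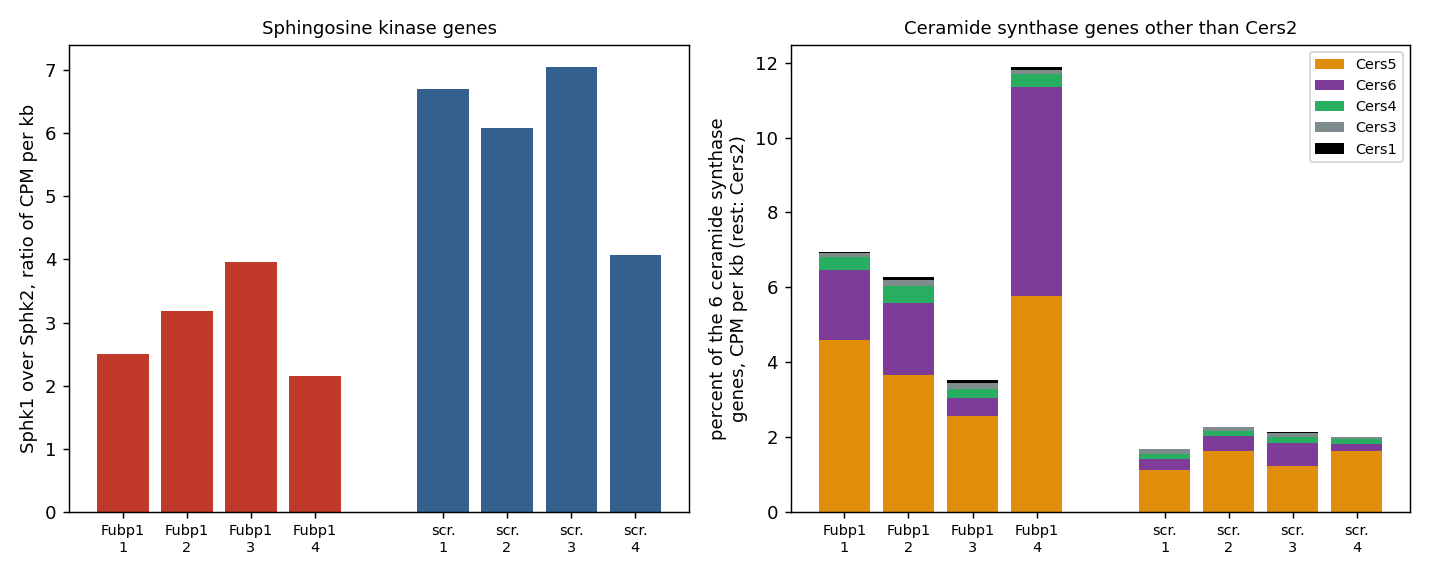
Left, the ratio of Sphk1 to Sphk2 levels per kilobase of exon; right, the stacked shares of the ceramide synthase genes other than Cers2 in the summed level of the 6 genes, in percent; each bar is 1 library, Fubp1 shRNA left of scrambled shRNA (scr.). The ratio runs from 2.15 to 3.96 in knockdown and from 4.07 to 7.05 in scrambled libraries, and the stacked share from 3.51 to 11.9% in knockdown and from 1.67 to 2.27% in scrambled libraries.

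Ugt8a (chr3:125865271-125938619), the enzyme that adds galactose to ceramide and is known for its part in myelin, had 2.46, 3.07, 3.20 and 0.936 CPM in knockdown libraries, against 7.94, 13.1, 9.66 and 5.22 CPM in scrambled libraries. The groups did not overlap. It averaged 2.42 ± 1.04 CPM in knockdown and 8.97 ± 3.29 CPM in scrambled cells, a level in knockdown of 26.9% of scrambled and a log2 fold change of -1.90 ± 0.41 (SE), on 43 to 101 counts per knockdown library and 116 to 425 counts per scrambled library. The call was lost in 5 of 15 alternatives: with the early granulocyte level as a covariate, and without knockdown library 1 or scrambled library 1, 2 or 3.

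Levels per kilobase put the 10 genes on 1 scale. In knockdown cells the order was Cers2 (89.7 CPM per kilobase), Sphk1 (30.8), Sphk2 (10.5), S1pr4 (8.91), Sgpl1 (5.20), Cers5 (3.96), Cers6 (2.34), S1pr2 (0.923), Ugt8a (0.533) and S1pr1 (0.458). In scrambled cells it was Cers2 (98.5 CPM per kilobase), Sphk1 (89.3), Sphk2 (15.03), S1pr4 (10.7), Sgpl1 (7.39), Ugt8a (1.98), Cers5 (1.40), S1pr2 (0.509), Cers6 (0.379) and S1pr1 (0.358). Neighbours in this order that differed by less than the larger of their SDs were Sphk2 and S1pr4, Cers5 and Cers6, Cers6 and S1pr2, and Ugt8a and S1pr1 in knockdown cells. In scrambled cells they were Cers2 and Sphk1, Ugt8a and Cers5, S1pr2 and Cers6, and Cers6 and S1pr1. Cers2 and Sphk1 thus lay close together in scrambled cells and well apart in knockdown cells.

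Of 59 other genes of the pathway, 51 were tested, of which 9 rose, 4 fell and 38 did not pass the edgeR test at an adjusted p of 0.05. Over all tested genes 8.02% were called higher and 7.29% lower, and the 4 that fell are close to that share. The median log2 fold change of the 51 was 0.08. The first steps of synthesis had 9 tested genes, of which 1 rose and 1 fell. Ormdl3, which restrains serine palmitoyltransferase, fell to 68.3 ± 7.995 CPM in knockdown cells, against 99.2 ± 10.2 CPM in scrambled cells (log2 fold change -0.54, edgeR adjusted p = 0.0141). Cers4, another ceramide synthase, rose to 4.29 ± 1.07 CPM in knockdown cells, against 1.73 ± 0.22 CPM in scrambled cells (log2 fold change 1.30, edgeR adjusted p = 0.0114). Degs1, the desaturase that completes ceramide and the gene of this list with the highest mean CPM over all 8 libraries, had 106 ± 21.2 CPM in knockdown and 89.2 ± 6.20 CPM in scrambled cells and was not called (edgeR adjusted p = 0.206).

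Of 12 tested genes of ceramide use and transfer, 2 rose and 1 fell. B4galt5, a lactosylceramide synthase, averaged 5.73 ± 4.21 CPM in knockdown and 0.845 ± 0.308 CPM in scrambled cells (log2 fold change 2.75, edgeR adjusted p = 0.0234). Cerk, which phosphorylates ceramide, averaged 12.995 ± 7.55 CPM in knockdown and 2.96 ± 0.784 CPM in scrambled cells (log2 fold change 2.13, edgeR adjusted p = 0.0277). St3gal5, which makes the ganglioside GM3, fell to 100.3 ± 19.1 CPM in knockdown cells, against 139.8 ± 9.99 CPM in scrambled cells (log2 fold change -0.48, edgeR adjusted p = 0.0343). Ugcg, which adds glucose to ceramide where Ugt8a adds galactose, had the highest mean CPM of this list, with 248 ± 28.0 CPM in knockdown and 281 ± 35.8 CPM in scrambled cells, and was not called (edgeR adjusted p = 0.278).

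Breakdown had 18 tested genes, of which 5 rose and 0 fell by edgeR. At an unadjusted p under 0.05, 1 was lower, and DESeq2 called 1 lower and limma-voom 0. Over all tested genes the shares were 8.02% higher and 7.29% lower. With the replicate number as a block 0 pathway genes were called higher (10 at an unadjusted p under 0.05), and with the early granulocyte covariate the 1 called higher was Degs1, which is no breakdown gene. Hexa, a subunit of lysosomal hexosaminidase, rose to 44.0 ± 15.04 CPM in knockdown cells, against 18.9 ± 2.70 CPM in scrambled cells (log2 fold change 1.22, edgeR adjusted p = 0.0192). Asah1, the acid ceramidase that yields sphingosine in lysosomes, rose to 28.4 ± 8.42 CPM in knockdown cells, against 14.5 ± 1.67 CPM in scrambled cells (log2 fold change 0.97, edgeR adjusted p = 0.0161). Glb1, the lysosomal beta-galactosidase, rose less (log2 fold change 0.55, edgeR adjusted p = 0.0403), and Smpd2, a neutral sphingomyelinase, rose by 1.66 on the log2 scale at 3.48 ± 1.78 CPM in knockdown and 1.10 ± 0.360 CPM in scrambled cells. Psap, the precursor of the saposins and the gene of the list with the highest mean CPM, had 322 ± 78.9 CPM in knockdown and 268 ± 18.2 CPM in scrambled cells and was not called (edgeR adjusted p = 0.274). The group's median log2 fold change was 0.26.

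Of 12 tested genes of sphingosine 1-phosphate signalling, removal and export, 1 rose and 2 fell. Spns2, an exporter of sphingosine 1-phosphate best known in endothelium, had 89.6, 97.6, 38.2 and 73.6 CPM in knockdown libraries, against 21.7, 28.4, 27.8 and 17.2 CPM in scrambled libraries (log2 fold change 1.65, edgeR adjusted p = 0.0140). All knockdown libraries were above all scrambled ones. Mfsd2b, the exporter of red cells and platelets, stayed the more abundant of the pair, at 328 ± 29.0 CPM in knockdown and 349 ± 40.4 CPM in scrambled cells, and was not called (edgeR adjusted p = 0.545). The ratio of Spns2 to Mfsd2b per kilobase averaged 0.293 ± 0.111 in knockdown and 0.0850 ± 0.0106 in scrambled cells. Markers of endothelium summed to 40.2 to 54.1 CPM in knockdown and 36.0 to 52.2 CPM in scrambled libraries. Most of that sum was Egfl7 alone, at 35.9 to 52.5 CPM in knockdown and 32.8 to 50.7 CPM in scrambled libraries. Of the 7 endothelial markers, 4 were under 1 CPM in every library. Megakaryocyte markers summed to 176 to 269.6 CPM in knockdown and 118 to 155 CPM in scrambled libraries, without overlap. Much of that difference was Itga2b, at 90.6 to 162 CPM in knockdown and 35.6 to 46.8 CPM in scrambled libraries. By edgeR, Itga2b and Gp1ba were called higher, and Pf4, Gp1bb, Gp5, Gp9 and Vwf were not called. The part of either list in the Spns2 values was not tested. Plpp1, a lipid phosphate phosphatase, fell to 8.70 ± 1.62 CPM in knockdown cells, against 17.2 ± 3.29 CPM in scrambled cells (log2 fold change -0.98, edgeR adjusted p = 0.0125). Aldh3a2, which oxidises the aldehyde that the lyase releases, fell to 17.1 ± 1.71 CPM in knockdown cells, against 28.5 ± 7.78 CPM in scrambled cells (log2 fold change -0.74, edgeR adjusted p = 0.0358). Of the 13 called pathway genes, Ormdl3, Cers4, Plpp1 and Spns2 kept the call with each of the 8 libraries left out in turn.

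**Figure D3:**
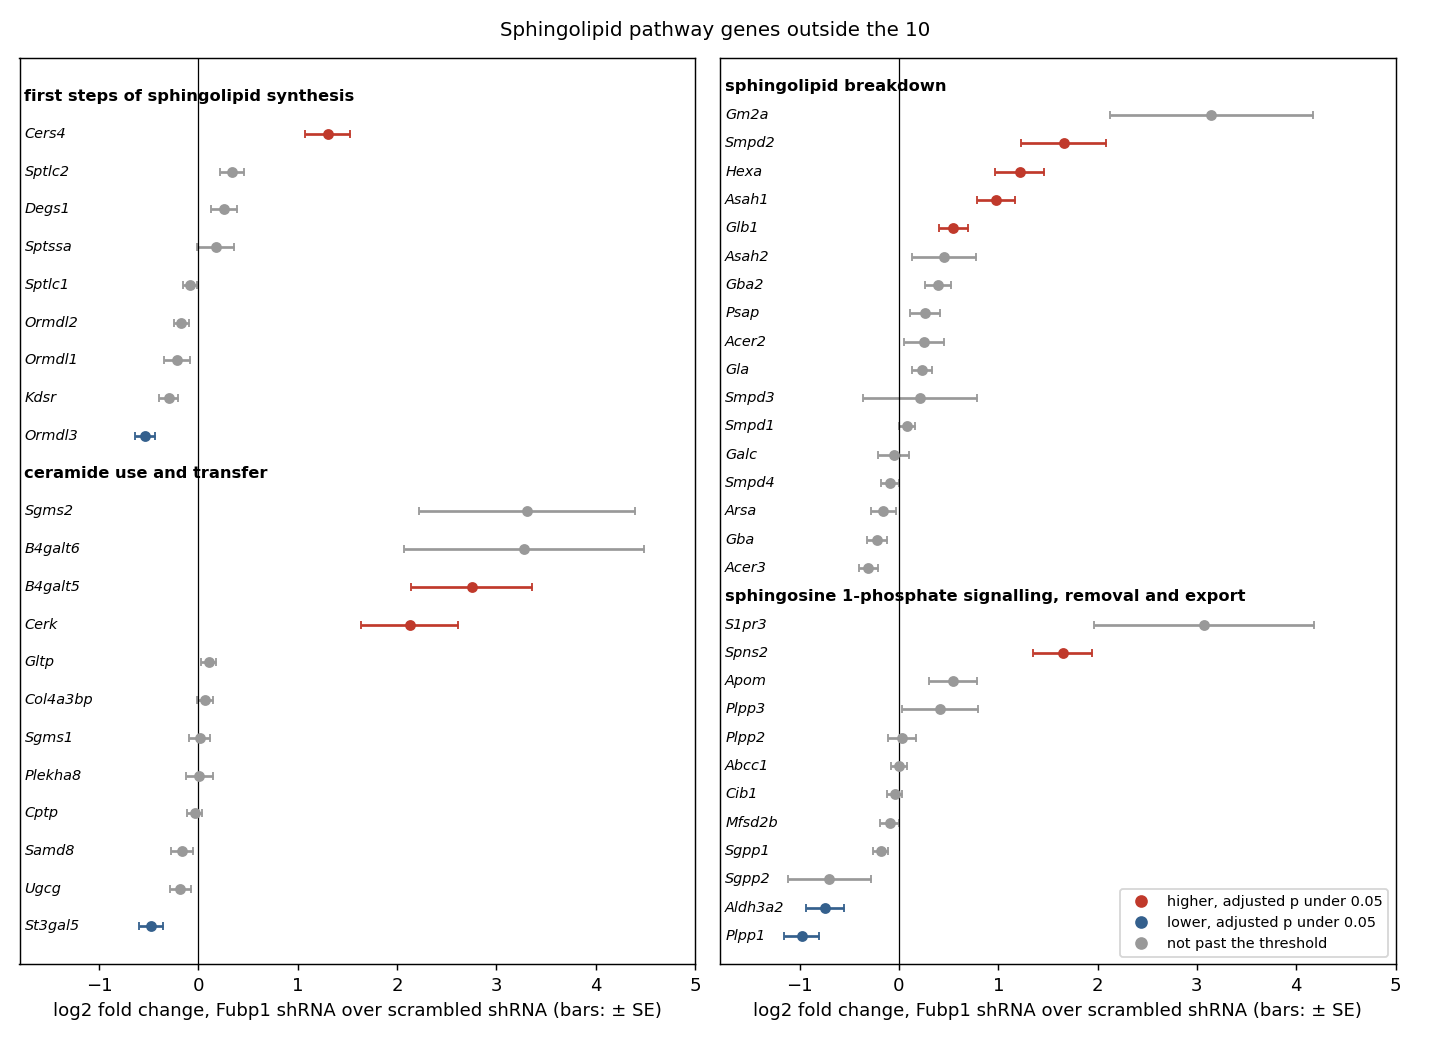
Log2 fold changes (horizontal axis, Fubp1 shRNA over scrambled shRNA, bars ± SE) of tested pathway genes other than the 10, by list and coloured by the edgeR call at an adjusted p of 0.05. Those called higher run up to B4galt5 at 2.75 and the 4 called lower down to Plpp1 at -0.98, and 4 genes above 3 have wide bars and were not called.

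The levels of several members ran with the early granulocyte sum inside the knockdown group. The 4 knockdown libraries of Sphk1, Cers2 and Ugt8a stood in exactly the reverse order of that sum (knockdown libraries 3, 2, 1, 4 from least to most), and those of S1pr2 and Cers5 in the same order. Over all tested genes 9.0% ran in the reverse order and 10.5% in the same order. Of the 13 called pathway genes, 5 ran in the same order (B4galt5, Cerk, Smpd2, Hexa and Aldh3a2) and 0 in the reverse order. In the scrambled libraries, B4galt5 alone of these 10 genes ran in the order of the sum, and none ran in the reverse order. This order of the knockdown libraries was not particular to early granulocyte markers. Sums of progenitor (61.3 to 277 CPM), monocyte and macrophage, B cell, and T and NK cell markers stood in the same order. Sums of immediate early genes (2288 to 6330 CPM) and endothelial markers stood in the reverse order, that of Sphk1, Cers2 and Ugt8a. The part of these lists in the members' values was not tested. With the early granulocyte level as a covariate in the edgeR fit, the log2 fold change was -1.27 for Sphk1, -0.51 for Sphk2, -1.63 for Ugt8a, 0.99 for Cers5, 0.62 for Cers6 and 0.36 for S1pr2. Over all tested genes, that fit called 410 higher and 191 lower, against 1080 and 982 without the covariate. The centred covariate was higher in knockdown libraries 1, 2 and 4 (2.32, 1.76 and 3.52) than in scrambled libraries (-2.86 to 0.09). Knockdown library 3 was at -1.84. Group and covariate can therefore not be fully told apart in that fit. Sphk1, Sphk2 and Cers5 passed the threshold in it and Cers6, Ugt8a and Sgpl1 did not. Of the 13 called pathway genes, 1 (Aldh3a2, -1.00) passed that threshold. Among those that did not, the log2 fold change with the covariate was -0.84 for Plpp1 (-0.98 without it), 0.77 for Asah1 (0.97), 0.45 for Glb1 (0.55), 1.02 for Cers4 (1.30), -0.40 for Ormdl3 (-0.54) and -0.30 for St3gal5 (-0.48). Larger differences between the fits were seen for Spns2 (1.00, against 1.65), Hexa (0.60, against 1.22), B4galt5 (0.93, against 2.75), Cerk (0.63, against 2.13) and Smpd2 (0.48, against 1.66). In knockdown library 3, whose early granulocyte sum of 86.0 CPM was within the scrambled range of 35.5 to 330.4 CPM, Sphk1 was at 196 CPM, Cers5 at 8.95 CPM and Ugt8a at 3.20 CPM, all outside the scrambled ranges of 306 to 489, 4.02 to 5.72 and 5.22 to 13.1 CPM. Cers6 at 4.22 CPM and S1pr2 at 4.44 CPM were inside theirs.

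**Figure D4:**
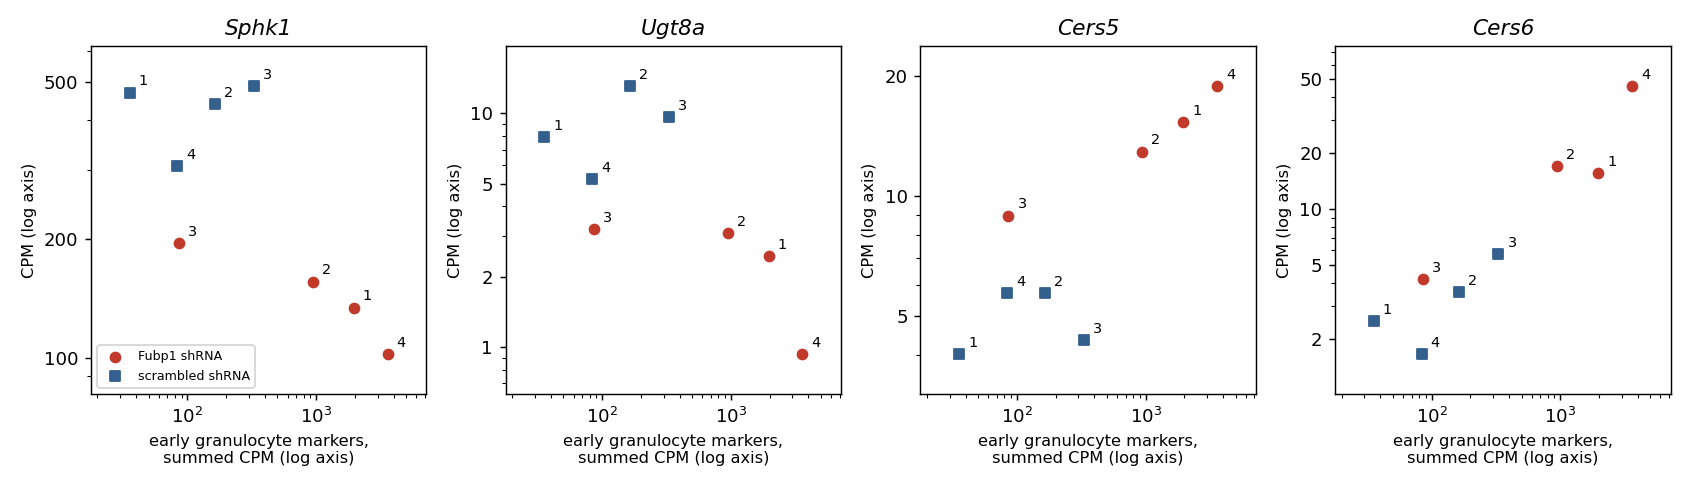
CPM of Sphk1, Ugt8a, Cers5 and Cers6 (vertical axes, log scale) against the summed CPM of 6 early granulocyte markers (horizontal axes, log scale) in the 8 libraries; red circles are Fubp1 shRNA and blue squares scrambled shRNA, with the replicate number beside each. The knockdown libraries span sums of 86.0 to 3591 CPM and the scrambled libraries 35.5 to 330.4 CPM.

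The genes whose profile over the 8 libraries lay closest to that of Sphk1, by root mean square difference of centred log2 CPM among 11441 genes, were Arhgef25 (0.158), Pkp2 (0.159), Ddx4 (0.201), Aldh1a1 (0.214) and Fzd7 (0.216), where the median gene was at 0.838. Arhgef25 averaged 21.8 ± 6.01 CPM in knockdown and 55.5 ± 14.8 CPM in scrambled cells. Aldh1a1, a retinaldehyde dehydrogenase, averaged 52.1 ± 17.5 CPM in knockdown and 140.8 ± 34.0 CPM in scrambled cells. Closest to Ugt8a were Tcaf1 (0.244), Sh2d4a (0.271) and again Aldh1a1 (0.296), against a median of 1.14. The 8 libraries form 2 groups, and this likeness includes the difference between them.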

How the data were processed

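Whole-number read counts per gene were deposited by the authors for 8 libraries, with no normalization. CASAVA 1.8 was used, per the submitters' processing notes, and the sources used here name no aligner, counter, strand setting, annotation or genome build. Per the labels' protocols, 500 ng of RNA entered a stranded total RNA kit, with 2 depletion kits named and not assigned to libraries. The deposited table also holds the authors' DESeq2 1.18.1 results: a mean normalised signal, log2 fold changes, the Wald score, and p-values with adjusted p-values. Those are kept apart from the values computed here.

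Columns were matched to samples through the sample descriptions, with 0 columns of per-sample values unmatched. Counts were tested with edgeR 4.0.16 (R 4.3.3): filterByExpr by group, TMM factors, robust quasi-likelihood fit, two-sided F test, Benjamini-Hochberg adjustment over 13462 genes, threshold 0.05. SE is the absolute log2 fold change over the square root of F. Every log2 fold change is knockdown over scrambled. The test was tried on simulated counts first. Alternatives were RLE size factors, no low count filter, a filter of 1 CPM in 4 libraries, DESeq2 1.42.0, limma-voom (limma 3.58.1), the replicate number as a block, the early granulocyte level as a covariate, and each library left out. CPM per kilobase uses the exon union of GENCODE M21 (GRCm38), to which all 10 members matched by Ensembl ID, and gene coordinates come from it. Levels, shares and orders are descriptions.

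The members and gene lists were chosen with earlier results of these data known. Genes named were all members, every called gene of the pathway lists, the tested gene with the highest mean CPM in each list, Fubp1, and the 5 and 3 genes most like Sphk1 and Ugt8a (mean of at least 1 CPM). Each library is 1 mouse, per the design text. Counts of low genes limit precision, as for S1pr1. A called gene of the breakdown list is counted but not reported here.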

Additional observations from a re-analysis of the deposited data

Results flagged for a closer look

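In groups of 4 libraries, 4 of 54 groups had a highest or lowest library separated from the others by more than Dixon's criterion allows for the group's range, where chance gives about 1 in 20. Among the members this was S1pr2, for which knockdown library 3 had the lowest level, 4.44 CPM, and the next knockdown library had 8.03 CPM. St3gal5 had its highest knockdown level, 128.6 CPM, in the same library, with 93.0 CPM in the next. Smpd2 had 1.64 CPM in scrambled library 3, with 0.944 CPM in the next scrambled library. Glb1 had 19.1 CPM in scrambled library 4, with 30.3 CPM in the next lowest.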

How the results depend on the processing

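RLE scaling and the 1 CPM filter kept every count of calls within 1.5 times. Against 1080 genes higher and 982 lower, DESeq2 called 2035 and 1553, the replicate block 195 and 205, and the granulocyte covariate 410 and 191. Leaving out 1 library gave 275 to 1956 higher and 251 to 1469 lower, the highest of both without knockdown library 3 and the lowest without scrambled library 2. Members called higher (2) became 1 without the low count filter, with limma-voom, with the block and with the covariate, and 1 to 3 with 1 library left out. Members called lower (4) became 2 with the covariate and 2 to 4 with 1 library left out. Pathway genes called higher (9) became 15 with DESeq2, 0 with the block (10 at an unadjusted p under 0.05, and 6 called by limma-voom) and 1 with the covariate (Degs1), and 2 to 14 with 1 library left out. Pathway genes called lower (4) became 1 with the block (Plpp1), 1 with the covariate (Aldh3a2), and 2 to 7 with 1 library left out. S1pr1 turned to -0.37 with the covariate. Over 27 genes, 297 of the gene values kept direction and side of the threshold, 104 lost the call, 3 gained it and 1 changed sign. The cause was not tested. Same-numbered libraries did not deviate together (r of -0.42, 0.02, -0.56 and -0.22 across genes). For differently numbered ones, r ran from -0.51 (knockdown library 4 with scrambled library 1) to 0.62 (knockdown library 3 with scrambled library 1). With r this wide among unlike numbers, these values cannot show whether same-numbered libraries share a batch. Counts per library were as low as 17 for S1pr1, 37 for Cers6, 43 for Ugt8a and 58 for S1pr2, which limits their precision.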

Other observations

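Outside the naming rule, and chosen after their values were seen, 4 pathway genes had a log2 fold change above 3 without passing the threshold. Sgms2, a sphingomyelin synthase, had 5.96, 2.94, 0.349 and 13.04 CPM in knockdown libraries, against 0.0833, 0.400, 1.32 and 0.405 CPM in scrambled libraries (log2 fold change 3.31, edgeR adjusted p = 0.0742). B4galt6, the second lactosylceramide synthase, averaged 14.1 ± 14.8 CPM in knockdown and 1.44 ± 1.46 CPM in scrambled cells (log2 fold change 3.28, edgeR adjusted p = 0.0995). Gm2a, the activator protein for GM2 breakdown, averaged 13.1 ± 11.7 CPM in knockdown and 1.46 ± 1.25 CPM in scrambled cells (log2 fold change 3.14, edgeR adjusted p = 0.0724). The receptor gene S1pr3 averaged 3.31 ± 3.58 CPM in knockdown and 0.380 ± 0.315 CPM in scrambled cells (log2 fold change 3.07, edgeR adjusted p = 0.0941).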
